A study of Homo sapiens with 6 samples.

Results

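The glucocorticoid receptor pathway was described through 7 genes in MOLT-4, a widely used line of human T-ALL (acute lymphoblastic leukemia of the T lineage). The genes were the receptor NR3C1, the chaperones HSP90AA1 and HSP90AB1, the cochaperones PTGES3, FKBP4 and FKBP5, and TSC22D3, and they were found by their symbols among 60640 gene identifiers. FKBP5 and TSC22D3 are also response genes of the receptor. Polyadenylated RNA was sequenced in 3 wild type libraries, from the control of the CRISPR experiment, and in 3 libraries labelled IK-KO, from MOLT-4 cells in which IKZF1, the gene of IKAROS, had been targeted. All 6 libraries came from cells grown in RPMI1640 with 10% FBS, and the labels name no glucocorticoid or other drug in either group. The study's methods state that the edited line and its control were purchased. The labels name no clone, so other differences between these lines cannot be told apart from an effect of the targeted gene. Whether the replicates were separate cultures is not given either, so p-values measure the spread between libraries, which may be technical.

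The glucocorticoid receptor is a steroid-activated transcription factor of the nuclear receptor family. Without ligand it is held in the cytoplasm by HSP90, with p23 (the product of PTGES3) and an immunophilin such as FKBP51 (FKBP5) or FKBP52 (FKBP4). FKBP51 lowers the receptor's affinity for its ligand, whereas FKBP52 favours transport to the nucleus, where the receptor binds glucocorticoid response elements and raises transcription of genes such as FKBP5 and TSC22D3 (GILZ, a leucine zipper protein that restrains inflammatory signaling). Glucocorticoids kill lymphoid blasts and are a main drug class in the treatment of T-ALL.

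Promoter sequences are shown here for 4 of the genes because they carry motifs of the proteins that bear on this comparison. These motifs are the core bound by IKAROS, TGGGAA, and the paired units bound by heat shock factors, GAANNTTC and TTCNNGAA, which can overlap each other. The 250 bases before each RefSeq start site (GRCh38.p14) were searched on both strands, and 6 of the 7 genes were matched, FKBP4 being the exception. Capitals mark the matches, and each window is written 5′ to 3′ along the strand of its gene. The HSP90AA1 window is chr14:102087085-102087144 on the minus strand, and it ends 41 bases before the start of the canonical transcript.
HSP90AA1, heat shock units: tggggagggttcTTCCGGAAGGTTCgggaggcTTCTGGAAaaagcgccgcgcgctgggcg
The HSP90AB1 window with the same kind of unit is chr6:44247768-44247852 on the plus strand, in intron 1 of the canonical transcript and before a start site at position 44247943.
HSP90AB1, heat shock units: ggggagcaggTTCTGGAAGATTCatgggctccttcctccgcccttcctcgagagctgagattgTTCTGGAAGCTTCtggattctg
Matches to the IKAROS core lay before the outermost NR3C1 start site, at chr5:143435633-143435692 on the minus strand. A further pair lay on the opposite strand before an HSP90AB1 start site, at chr6:44246004-44246053 on the plus strand, where they read TTCCCA.
NR3C1, IKAROS core: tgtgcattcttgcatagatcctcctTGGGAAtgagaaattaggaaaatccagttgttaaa
HSP90AB1, IKAROS core: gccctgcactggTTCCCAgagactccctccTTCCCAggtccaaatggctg
TSC22D3 held an IKAROS core in intron 1 of the canonical transcript, at chrX:107716551-107716580, and a core of the glucocorticoid response element, ACANNNTGT, at chrX:107775976-107776005, where it overlaps an annotated exon. Both are on the minus strand.
TSC22D3, IKAROS core: ggtgcagcatccTGGGAAggggcggggggg
TSC22D3, glucocorticoid response element core: agggtaatttACATGCTGTcatatcccagt
Counted per gene over all its start sites, GAANNTTC was present in 7.0% and TTCNNGAA in 8.1% of the 27305 genes with a RefSeq promoter, and among the members both were found in HSP90AA1 and HSP90AB1. The IKAROS core was present in 24.6% of these genes, and among the members in NR3C1, TSC22D3 and HSP90AB1. These 3 have 7, 4 and 3 start sites, and in each of them the core lay before 1 start site. The glucocorticoid response element core was present in 5.6% of genes and, among the members, in TSC22D3. The CCAAT box was present in 37.0% of genes and in NR3C1, FKBP5 and HSP90AA1. A match describes the letters of a window and does not show binding.

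IKZF1 itself was at 134, 124 and 105 FPKM in wild type replicates 1 to 3 and at 207, 260 and 207 FPKM in IK-KO replicates 1 to 3. FPKM is a level scaled to fragments per kilobase of transcript length and to 1000000 fragments mapped. The targeted gene's RNA was higher in IK-KO, by 0.89 on the log2 scale (SE 0.12, adjusted p = 0.00295, limma), which does not speak to the protein. The study's methods state that the knockout was checked by PCR and western blot. The groups are named below as labelled. The 6 tables list between 21254 and 21887 rows above 0, with FPKM sums between 699352 and 738051. They give confidence bounds but no counts. Of 10 markers of T-cell leukemia lines, all 10 reached 1 FPKM in each wild type library and 9 in each IK-KO library, where CD4 fell below it. The 10 markers summed to between 1393 and 1462 FPKM in wild type and between 1557 and 1727 FPKM in IK-KO. The sum hides changes in both directions, since 4 of the 10 were called higher and 4 lower (80.0% called, beside 19.9% of all tested genes). The higher ones were CD1A (log2 change 0.86), CD3G (0.65), CD3D (0.44) and ZAP70 (0.30). The lower ones were CD7 (-1.72), CD4 (-1.45), CD5 (-1.06) and TAL1 (-0.86). The groups thus differ in markers of their own cell type, and the part of this in the results was not tested. Of 13 markers of other cell types, 1 or 2 reached 1 FPKM in any library (PECAM1 in all and CD79A in 1), their sums lay between 17.3 and 20.8 FPKM in wild type and between 18.9 and 22.8 FPKM in IK-KO, and CD33, HBB and EPCAM were listed at 0.

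Of the 7 genes, NR3C1 was lower and HSP90AB1 and PTGES3 were higher in the libraries labelled IK-KO, whereas HSP90AA1, FKBP4, FKBP5 and TSC22D3 did not pass the test. A gene was called at an adjusted p under 0.05 in a limma fit of log2(FPKM + 1) over 12652 genes with a mean of at least 1 FPKM. All 7 genes passed this filter, TSC22D3 only through 1 library. The 3 calls stand beside 19.9% of all tested genes called, with 10.1% of all tested genes called higher and 9.75% called lower. In 5 of the 7 genes no library of either group lay within the range of the other, beside 39.0% of all tested genes. The changes were modest: the called members moved by 0.22 to 0.45 on the log2 scale, while the median absolute change of all called genes was 0.52.

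**Figure D1:**
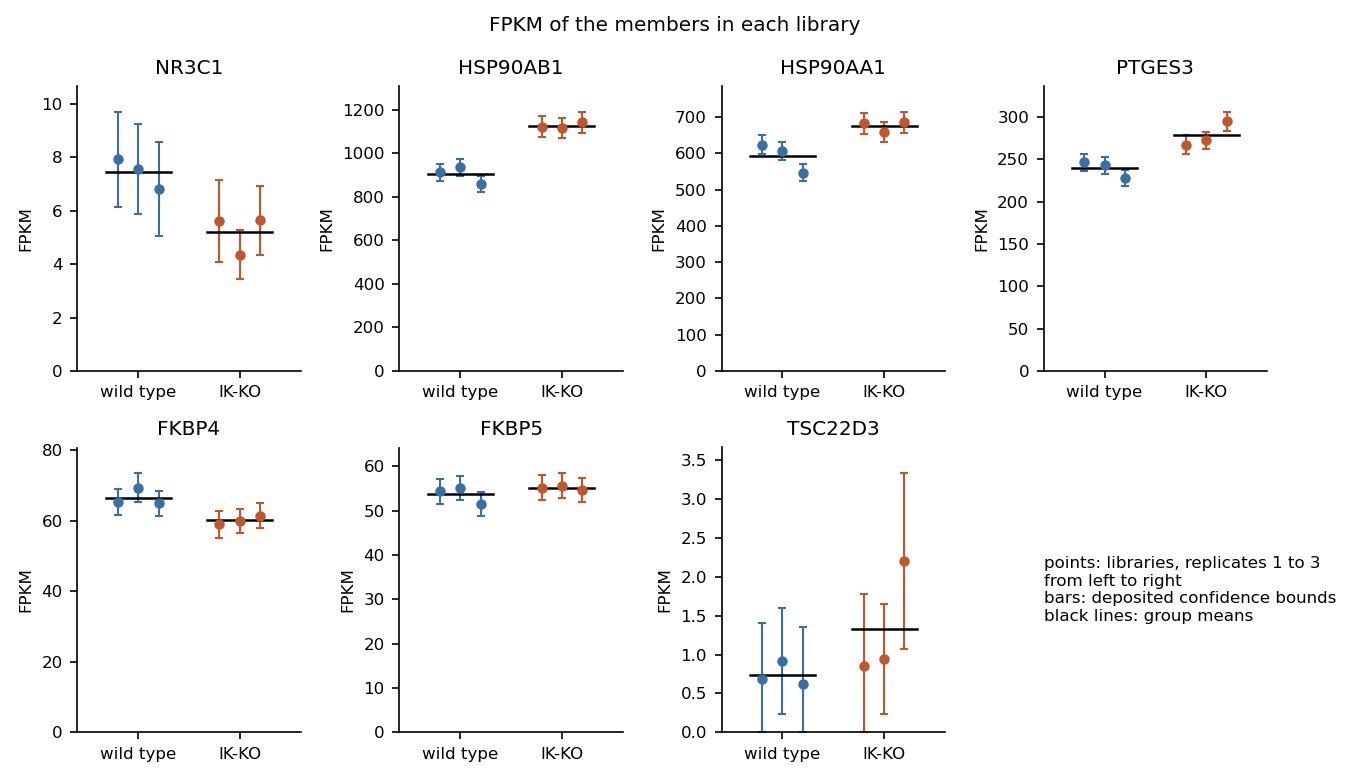
FPKM (vertical axes, starting at 0) of the 7 genes in the 3 wild type libraries (blue) and the 3 libraries labelled IK-KO (orange). Points are libraries, bars are the confidence bounds in the deposited tables and black lines are group means. The bounds of the 2 groups do not meet for HSP90AB1, and those of TSC22D3 reach 0 in 3 libraries.

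NR3C1 (ENSG00000113580), the receptor itself, lies on chromosome 5 at positions 143277931 to 143435512 of GRCh38, on the minus strand, with 17 transcripts and 9 exons in the canonical one. Its level was 7.92, 7.57 and 6.82 FPKM in the wild type replicates and 5.62, 4.35 and 5.65 FPKM in the IK-KO replicates. Each IK-KO library was below each wild type library, with replicate 2 the lowest. The means were 7.44 ± 0.562 and 5.21 ± 0.740 FPKM (SD, n = 3 libraries each), a ratio of 0.700. On the log2(FPKM + 1) scale NR3C1 fell by 0.45 (SE 0.12, 95% interval -0.73 to -0.17, adjusted p = 0.0395, limma). The call was lost when any 1 of the 6 libraries was left out, with changes between -0.50 and -0.34 and adjusted p between 0.0557 and 0.116 (limma). Those fits called 13.6 to 16.1% of all tested genes, beside 19.9% in the main fit. The confidence bounds of single libraries also overlapped between the groups, from 5.06 to 9.70 FPKM in wild type and from 3.43 to 7.16 FPKM in IK-KO. In RNA from whole cultures, fewer cells that express a gene and less RNA per cell cannot be told apart. The tables are at gene level, so use of the different NR3C1 start sites was not analysed here.

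HSP90AB1 (ENSG00000096384), the constitutive cytosolic HSP90, was the most abundant of the 7 genes and had the lowest adjusted p among them. It lies on chromosome 6 at positions 44246166 to 44253888, on the plus strand, and its canonical transcript has 12 exons. Its level was 914, 935 and 861 FPKM in wild type and 1123, 1116 and 1143 FPKM in IK-KO. All 3 IK-KO libraries lay above all wild type libraries, and this was the only one of the 7 genes in which the deposited bounds did not overlap (highest wild type bound 975 FPKM, lowest IK-KO bound 1070 FPKM). The means were 903 ± 38.4 and 1128 ± 13.9 FPKM (SD, n = 3 each), and the gene rose by 0.32 on the log2 scale (SE 0.04, 95% interval 0.22 to 0.42, adjusted p = 0.00314, limma). The call held without any 1 library. It was lost, at 0.07 and an adjusted p of 0.252 (limma), when the median change of the 25 tested genes on each side was removed.

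HSP90AA1 (ENSG00000080824), the stress-inducible cytosolic HSP90, lies on chromosome 14 at positions 102080738 to 102139699, on the minus strand. Its level was 624, 607 and 547 FPKM in wild type and 683, 658 and 686 FPKM in IK-KO. The groups did not overlap, and wild type replicate 3 was the lowest library. This replicate was also the lowest wild type library in every other member, and its FPKM sum, 699352, was the lowest of all libraries. With means of 593 ± 40.7 and 675 ± 15.3 FPKM (SD, n = 3 each), the difference was 0.19 on the log2 scale (SE 0.06, adjusted p = 0.058, limma) and was not called. Median-of-ratios scaling called it, at 0.17 and an adjusted p of 0.0252 (limma). Quantile normalization did not, at 0.095 and an adjusted p of 0.244 (limma). Without wild type replicate 3 the change was 0.13, with an adjusted p of 0.0863 (limma).

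HSP90AA1 and HSP90AB1 encode closely similar proteins, and the promoter windows of both, shown above, hold heat shock units. Together they summed to 1538, 1543 and 1407 FPKM in wild type and to 1806, 1774 and 1829 FPKM in IK-KO. HSP90AA1 made up 40.6, 39.4 and 38.8% of this sum in wild type and 37.8, 37.1 and 37.5% in IK-KO. The share was lower in each IK-KO library, by 2.14 percentage points (39.6 ± 0.89 against 37.5 ± 0.36%, SD, n = 3 each), with an exact two-sided permutation p of 0.1, which is the lowest this design can give. The bounds of the tables allow a difference from -6.09 to 1.82 points. HSP90AB1 lies on chromosome 6, and the share was not recomputed with the median change of chromosomal neighbours removed. In that setting HSP90AA1 changed by 0.14 and HSP90AB1 by 0.07 on the log2 scale. The 9 processed copies of these genes in the tables summed to between 1.83 and 6.44 FPKM, at most 0.406% of the parent genes. How the estimation divided fragments between the parent genes and their copies was not tested.

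PTGES3 (ENSG00000110958) encodes p23, the cochaperone that binds the ATP-bound state of HSP90 late in the cycle that readies the receptor for its ligand. It lies on chromosome 12 at positions 56663341 to 56688408, on the minus strand, with 8 exons in the canonical transcript. Its level was 247, 243 and 228 FPKM in wild type and 267, 272 and 295 FPKM in IK-KO. All IK-KO libraries were higher than all wild type libraries, with replicate 3 the highest. The means were 239 ± 9.84 and 278 ± 14.7 FPKM (SD, n = 3 each), a rise of 0.22 on the log2 scale (SE 0.06, 95% interval 0.09 to 0.35, adjusted p = 0.0335, limma). The call was lost without any 1 of the 6 libraries, with changes between 0.17 and 0.24 and adjusted p between 0.0532 and 0.0907 (limma). In those fits 13.6 to 16.1% of all tested genes were called. RN7SL809P, a short gene inside PTGES3, was listed at 0 throughout wild type and had values of 0, 3.12 and 4.03 FPKM in IK-KO, and its part in the PTGES3 values was not tested. PTGES3 stood at 15.7 to 16.2% of the HSP90 sum in wild type and at 14.8 to 16.1% in IK-KO, so these ranges overlapped.

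FKBP4 and FKBP5 encode the paired immunophilins of the receptor complex, and neither was called. FKBP4 (ENSG00000004478), on chromosome 12 at positions 2794970 to 2805423 on the plus strand, was at 65.4, 69.4 and 64.9 FPKM across wild type and at 59.1, 60.1 and 61.5 FPKM in IK-KO. Each IK-KO library was below each wild type library. The means of 66.6 ± 2.44 and 60.2 ± 1.22 FPKM (SD, n = 3 each) gave a difference of -0.14 on the log2 scale (SE 0.05, adjusted p = 0.0942, limma). Rescaling to a common sum, median-of-ratios scaling and quantile normalization each called it lower, at -0.16, -0.16 and -0.18 with adjusted p of 0.0344, 0.0472 and 0.0221 (limma).

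FKBP5 (ENSG00000096060), the receptor's own response gene, lies on chromosome 6 at positions 35573585 to 35728583, on the minus strand. It was at 54.3, 55.1 and 51.5 FPKM across wild type and at 55.2, 55.6 and 54.7 FPKM in IK-KO. The groups overlapped, since wild type replicate 2 was above IK-KO replicate 3. The difference was 0.04 on the log2 scale (SE 0.05, 95% interval -0.08 to 0.16, adjusted p = 0.633, limma), from means of 53.6 ± 1.93 and 55.2 ± 0.433 FPKM (SD, n = 3 each). The difference had the opposite sign, at -0.16 with an adjusted p of 0.0585 (limma), once the median change of its 50 chromosomal neighbours was removed.

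Within a library, FKBP5 made up 45.4, 44.3 and 44.2% of the sum of FKBP5 and FKBP4 in wild type and 48.3, 48.1 and 47.1% in IK-KO. The share was higher in each IK-KO library, by 3.18 percentage points (44.6 ± 0.65 against 47.8 ± 0.65%, SD, n = 3 each; exact two-sided permutation p of 0.1, again the lowest possible). The bounds of the tables allow a difference from -2.22 to 8.58 points. The share was not recomputed with chromosomal neighbours removed, although FKBP5 lies on chromosome 6 and FKBP4 does not. In that setting FKBP5 changed by -0.16 and FKBP4 by -0.11 on the log2 scale. For each FPKM of NR3C1 there were 6.86, 7.29 and 7.55 FPKM of FKBP5 in wild type and 9.81, 12.8 and 9.68 in IK-KO. These ratios did not overlap between the groups, although the FKBP5 levels themselves did. With FKBP5 nearly level, the ratios restate the NR3C1 difference and are no separate result.

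TSC22D3 (ENSG00000157514), which encodes GILZ, lies on the X chromosome at positions 107713221 to 107777342, on the minus strand, with 18 transcripts. It was at 0.691, 0.920 and 0.620 FPKM across wild type and at 0.850, 0.939 and 2.2 FPKM in IK-KO. The groups overlapped, and IK-KO replicate 3 stood above the other 5 libraries. The means were 0.744 ± 0.157 and 1.33 ± 0.755 FPKM (SD, n = 3 each), and the difference of 0.38 on the log2 scale (SE 0.25, 95% interval -0.21 to 0.96, adjusted p = 0.345, limma) was not called. Without IK-KO replicate 3 the gene fell under the filter and was not tested. The lower confidence bound was 0 in wild type replicates 1 and 3 and in IK-KO replicate 1, so the values are imprecise at this level. The size of difference that could be detected was not tested.

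The level order of the 7 genes per unit of length was the same in all 6 libraries, from HSP90AB1 through HSP90AA1, PTGES3, FKBP4, FKBP5 and NR3C1 to TSC22D3. No neighbouring pair in this order overlapped over the 6 libraries in its FPKM values. The deposited bounds of FKBP4 and FKBP5 did overlap, in IK-KO replicate 1 from 55.2 to 62.9 FPKM and from 52.4 to 58.0 FPKM. The order of these genes is therefore less certain. In mean FPKM, HSP90AB1 exceeded HSP90AA1 1.52-fold in wild type and 1.67-fold in IK-KO, and FKBP4 exceeded FKBP5 1.24-fold and 1.09-fold, the closest pair. FKBP5 exceeded NR3C1 7.21-fold in wild type and 10.6-fold in IK-KO. By mean level, HSP90AB1 ranked 117 and NR3C1 8330 among the 12652 tested genes.

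**Figure D2:**
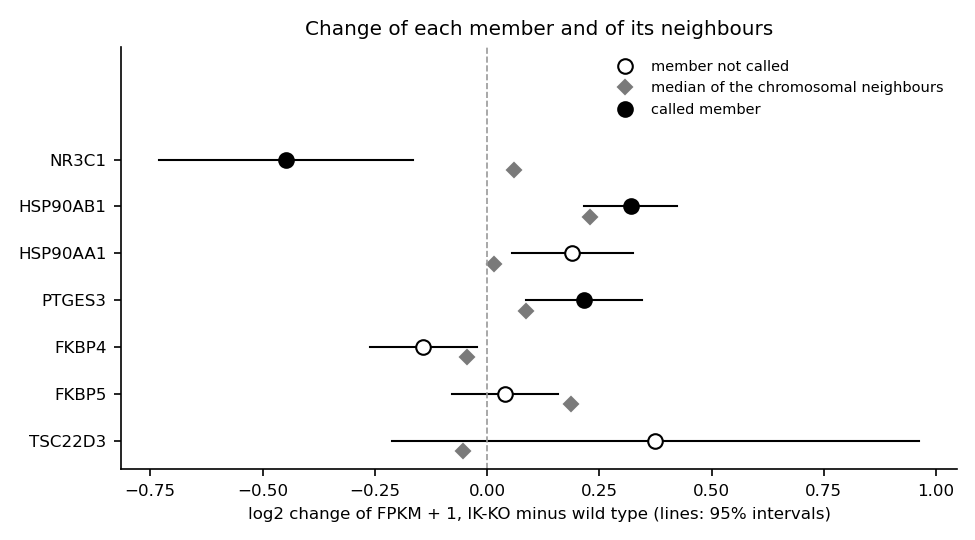
Change of each gene on the log2(FPKM + 1) scale (horizontal axis, IK-KO minus wild type) with its 95% interval. Filled circles are called genes, open circles genes that were not called, and grey diamonds the median change of the 25 tested genes on each side. NR3C1 lies at -0.45 with its neighbours at 0.06, and HSP90AB1 lies at 0.32 with its neighbours at 0.23.

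The chromosomal surroundings of the members were not alike. On chromosome 6, 74.5% of the 655 tested genes had a positive change and the median was 0.21, beside a median of 0.02 over all tested genes. HSP90AB1 and FKBP5 both lie there. Of the 50 neighbours of HSP90AB1, 43 were higher, 19 were called higher and 1 lower, and the median was 0.23. HSP90AB1 stood above that median by 0.09, and 16 of the 50 changed by more in the positive direction. Of the 50 neighbours of FKBP5, 36 were higher, 17 were called higher and 3 lower, and the median was 0.19. FKBP5 was thus 0.15 below its surroundings, and 35 of the 50 lay above it. With 10 genes on each side the median was 0.34 and the gap 0.30, and with 50 they were 0.22 and 0.18. By contrast, the median around NR3C1 was 0.06 and 48 of its 50 neighbours lay above it. The medians around PTGES3, HSP90AA1, FKBP4 and TSC22D3 were 0.09, 0.02, -0.04 and -0.05, and that around TSC22D3 was -0.21 with 10 genes on each side and 0.01 with 50. The part of the chromosome 6 shift in the HSP90AB1 and FKBP5 values was not tested beyond its removal.

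**Figure D3:**
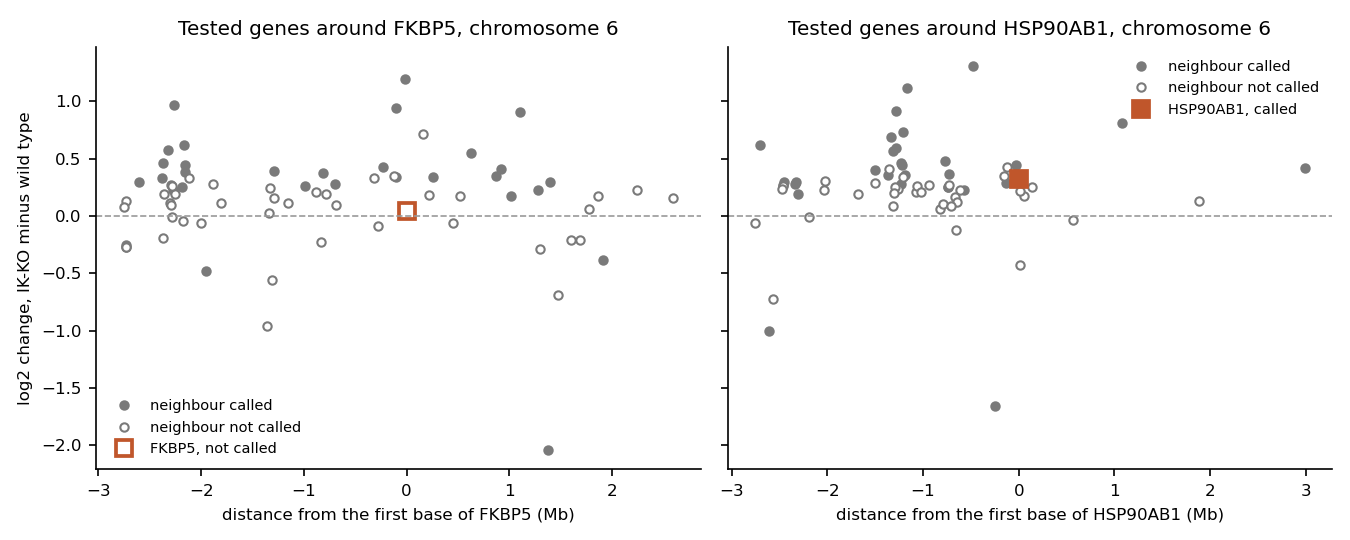
Changes of tested genes within 3 Mb of FKBP5 (left) and HSP90AB1 (right), with the distance from the first base of each gene in Mb on the horizontal axes and the log2 change, IK-KO minus wild type, on the vertical axis. Filled symbols are called genes and the square is the named gene. Of 72 neighbours of FKBP5, 53 lie above 0, and of 65 neighbours of HSP90AB1, 57 do.

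Genes of the receptor's chaperone cycle, beyond the members, were called in both directions. Of 23 genes, 21 were tested, 3 were called higher and 4 lower (33.3% called, beside 19.9% of all tested genes), and the median change was 0.03. The list, and so this share, also takes in HSP90 relatives outside the cytosol, TRAP1 among them, which are not part of the receptor's cycle. DNAJB1, an HSP40 that starts the cycle by loading clients onto HSP70, went from 58.7 ± 1.26 to 67.7 ± 2.44 FPKM (log2 change 0.20, adjusted p = 0.0307, limma). STIP1, the adaptor that passes clients from HSP70 to HSP90, went from 180 ± 3.63 to 207 ± 4.96 FPKM (0.20, adjusted p = 0.0165, limma). The groups did not overlap in either gene. TRAP1, the mitochondrial HSP90, fell from 74.0 ± 2.16 to 45.6 ± 2.68 FPKM (log2 change -0.69, adjusted p = 0.000475, limma). BAG1, a nucleotide exchange factor of HSP70 that also binds the receptor, fell from 102 ± 1.58 to 76.5 ± 1.13 FPKM (-0.41, adjusted p = 0.000985, limma). BAG1 lies on chromosome 9, where the median change of the 469 tested genes was -0.35, and after removal of its neighbours its change was -0.10 with an adjusted p of 0.276 (limma). The other called genes of the list, named after their values were seen, went both ways. DNAJA1, an HSP40 like DNAJB1 but on chromosome 9, was lower (-0.20, adjusted p = 0.0247, limma). HSPA4 was also lower (-0.225, adjusted p = 0.0158, limma), and HSP90B1 was higher (0.19, adjusted p = 0.0492, limma). TRAP1, on chromosome 16, kept its call in all 17 alternatives, whereas DNAJB1 kept it in 9 and STIP1 in 11. Without a variance trend 2 genes of the list were called, TRAP1 and BAG1, beside 17.7% of all tested genes in that fit. Leaving out 1 library left between 2 and 5, beside 13.6 to 16.1% of all tested genes. AHSA1, CDC37 and PPP5C, further HSP90 partners named here after their values were seen, had changes of 0.03, 0.02 and 0.02 and were not called.

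Of the heat shock factors and further chaperones, 13 of 17 were tested, 5 were called higher and 2 lower (53.8% called, beside 19.9% of all tested genes), and the median change was 0.18. The list takes in chaperones that are not chiefly heat-inducible, HSPA5 among them, and DNAJB1 was counted in the chaperone cycle list. The share therefore does not describe heat-inducible genes alone. SERPINH1, the collagen chaperone HSP47, rose from 8.16 ± 0.0887 to 18.5 ± 0.364 FPKM (log2 change 1.09, adjusted p = 0.000113, limma). HSF2, a heat shock factor, rose from 22.0 ± 2.12 to 28.7 ± 2.31 FPKM (0.37, adjusted p = 0.0323, limma). HSF2 lies on chromosome 6, and its call was lost after removal of its neighbours (0.16, adjusted p = 0.188, limma). HSPH1, an HSP110 exchange factor, fell from 72.5 ± 6.13 to 59.5 ± 1.06 FPKM (-0.28, adjusted p = 0.0319, limma). HSPA5, the HSP70 of the endoplasmic reticulum, fell from 102 ± 4.68 to 88.5 ± 3.08 FPKM (-0.20, adjusted p = 0.0427, limma), but it lies on chromosome 9 and had the opposite sign after that removal (0.13, adjusted p = 0.121, limma). The count depended on the fit: 1 gene was called without a variance trend, 1 without IK-KO replicate 1, 2 without wild type replicate 2 or IK-KO replicate 3, 3 without wild type replicate 1 and 4 without either of the other libraries, beside 13.6 to 17.7% of all tested genes in those fits. SERPINH1 kept its call in all 17 alternatives, HSF2 and HSPH1 in 9 each and HSPA5 in 8. HSF1, the main stress-activated factor, was not called, with means of 58.7 FPKM in wild type and 52.7 FPKM in IK-KO (-0.15, adjusted p = 0.0735, limma). HSF1 is given for its role, outside the rule that chose the other names.

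Genes known to respond to glucocorticoids did not move in a common direction. Of 34 genes, 23 were tested, 5 were called higher and 4 lower (39.1% called, beside 19.9% of all tested genes), and the median change was -0.01. TNFAIP3, the ubiquitin-editing enzyme A20 that restrains NF-κB, rose from 11.1 ± 2.01 to 23.3 ± 1.52 FPKM (log2 change 1.02, adjusted p = 0.00243, limma). TNFAIP3 lies on chromosome 6, and after removal of its neighbours its change was 0.98 (adjusted p = 0.00195, limma). CEBPB, a leucine zipper transcription factor, rose from 11.0 ± 0.697 to 17.8 ± 2.18 FPKM (0.64, adjusted p = 0.00615, limma). DDIT4, an inhibitor of mTORC1 induced by glucocorticoids in lymphoid cells, was at 22.6, 22.6 and 21.6 FPKM across wild type and at 7.66, 9.35 and 7.83 FPKM in IK-KO. The change of DDIT4 was -1.33 (SE 0.09, adjusted p = 0.000155, limma), and it kept its call in all 17 alternatives. ZFP36, the mRNA-destabilizing protein tristetraprolin, fell from 5.37 ± 0.635 to 2.84 ± 0.477 FPKM (-0.73, adjusted p = 0.011, limma). The 11 genes of this list that were not tested had a mean of under 1 FPKM over the 6 libraries.

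**Figure D4:**
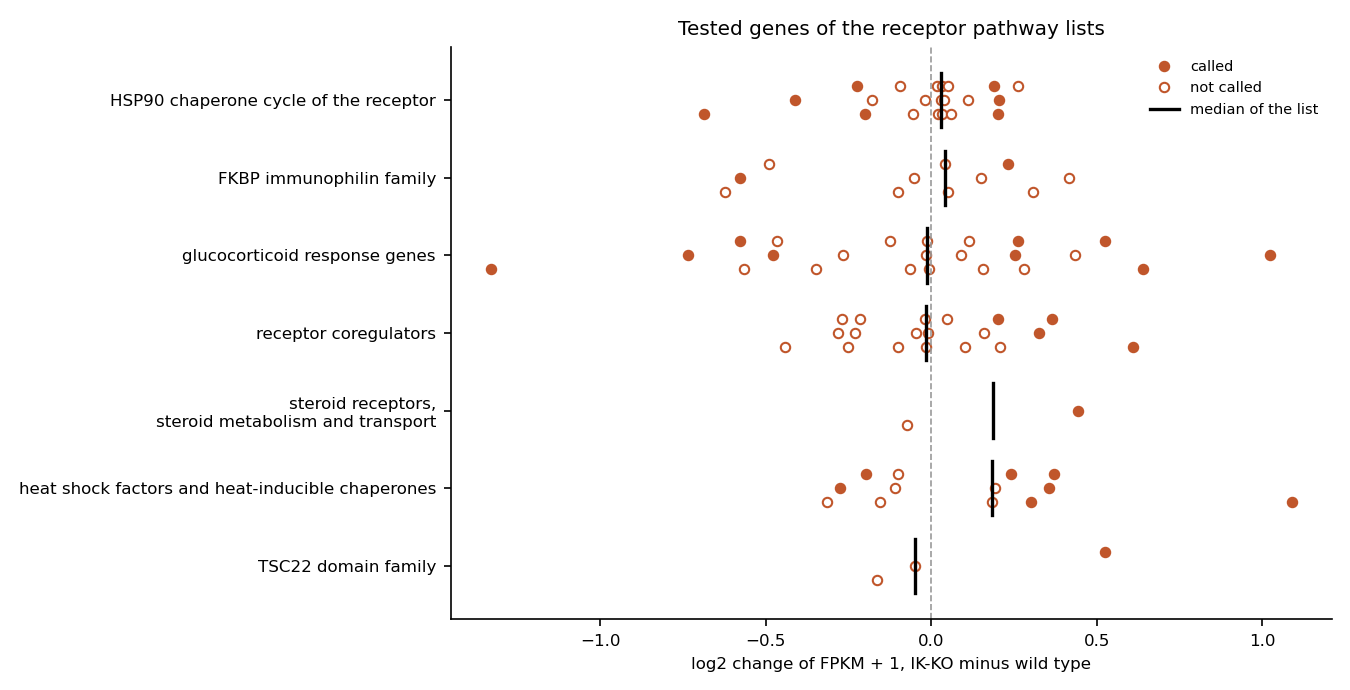
Change of each tested gene (points) of the 7 pathway lists on the log2(FPKM + 1) scale, IK-KO minus wild type. Filled points are called genes and black lines are list medians. The list of glucocorticoid response genes spreads from -1.33 (DDIT4) to 1.02 (TNFAIP3) around a median of -0.01.

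Of the receptor coregulators, 19 of 20 were tested, 4 were called higher and none lower (21.1% called), and the median change was -0.02. This share is close to the 19.9% of all tested genes, and the count was 2 without wild type replicate 2 or IK-KO replicate 3. EHMT2, the histone methyltransferase G9a, which serves the receptor as a coregulator, rose from 62.0 ± 0.0922 to 95.2 ± 1.02 FPKM (log2 change 0.61, adjusted p = 0.00019, limma). It lies on chromosome 6, and its change was 0.35 after removal of its neighbours (adjusted p = 0.00309, limma). SMARCA4, the ATPase of the SWI/SNF remodeling complex, rose from 79.2 ± 4.26 to 102 ± 0.993 FPKM (0.36, adjusted p = 0.00407, limma). The p160 coactivators NCOA1, NCOA2 and NCOA3, given for their role after their values were seen, had changes of 0.21, -0.10 and -0.22 and were not called.

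Of 11 further genes for steroid receptors, steroid metabolism and transport, 2 were tested. Beside 10.1% of all tested genes called higher, 1 of these 2 was called higher. This was H6PD, which supplies NADPH for the regeneration of cortisol, at 3.08, 3.41 and 3.59 FPKM across wild type and at 4.87, 5.51 and 4.43 FPKM in IK-KO. The groups did not overlap, and the means were 3.36 ± 0.260 and 4.94 ± 0.544 FPKM (SD, n = 3 each; log2 change 0.44, adjusted p = 0.0372, limma). H6PD kept its call in 8 of the 16 alternatives that tested it and lost it when any 1 library was left out (changes between 0.38 and 0.51, adjusted p between 0.0524 and 0.116, limma). Of all tested genes, 13.6 to 16.1% were called in the fits without 1 library. HSD11B1, the cortisol-regenerating enzyme of the same list, is given here for its role. It had a mean of 0.03 FPKM in wild type, was listed at 0 in IK-KO and was not tested. Whether the H6PD difference bears on cortisol was therefore not shown. NR3C2 and PGR, the mineralocorticoid and progesterone receptors, had mean levels of 0.0524 and 0 FPKM in wild type and were listed at 0 in IK-KO.

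In the wider families of the members, 11 of 15 FKBP immunophilins were tested, of which 1 was called higher and 1 lower (18.2% called), with a median change of 0.04. This share is close to the 19.9% of all tested genes, and no gene of the family was called without a variance trend, with neighbours removed, or without wild type replicate 1, wild type replicate 2 or IK-KO replicate 3. FKBP3 rose from 58.1 ± 1.96 to 68.4 ± 3.16 FPKM (log2 change 0.23, adjusted p = 0.0278, limma). FKBP15 fell from 8.65 ± 1.37 to 5.48 ± 1.02 FPKM (-0.58, adjusted p = 0.038, limma). FKBP15 lies on chromosome 9, and its change was -0.17 after removal of its neighbours (adjusted p = 0.474, limma). Each of these calls was kept in 9 of 17 alternatives. TSC22D1, a relative of TSC22D3, rose from 13.2 ± 1.04 to 19.4 ± 1.43 FPKM (0.52, adjusted p = 0.00699, limma), while the other tested relatives, TSC22D2 and TSC22D4, were not called (-0.16 and -0.05).

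The genes whose log2(FPKM + 1) followed NR3C1 most closely over the 6 libraries were AL049552.2, ARFGEF1 and TRIM41, with Pearson's r of 0.9959, 0.9939 and 0.9931. By the same measure, the genes most like the other members included JADE3, MDH2 and ZNF175 for FKBP5 (r of 0.9968, 0.9927 and 0.9918) and AC132008.2 and BLOC1S2 for TSC22D3 (0.9902 and 0.978). These points share 6 libraries in 2 groups, and 147, 61 and 29 tested genes had an r above 0.95 with NR3C1, FKBP5 and TSC22D3, so the order among them is a description only. TSC22D3 was at 2.2 FPKM in IK-KO replicate 3 and under 1 FPKM in every other library. Its r values thus lean on that library, and r without it was not computed.

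**Figure D5:**
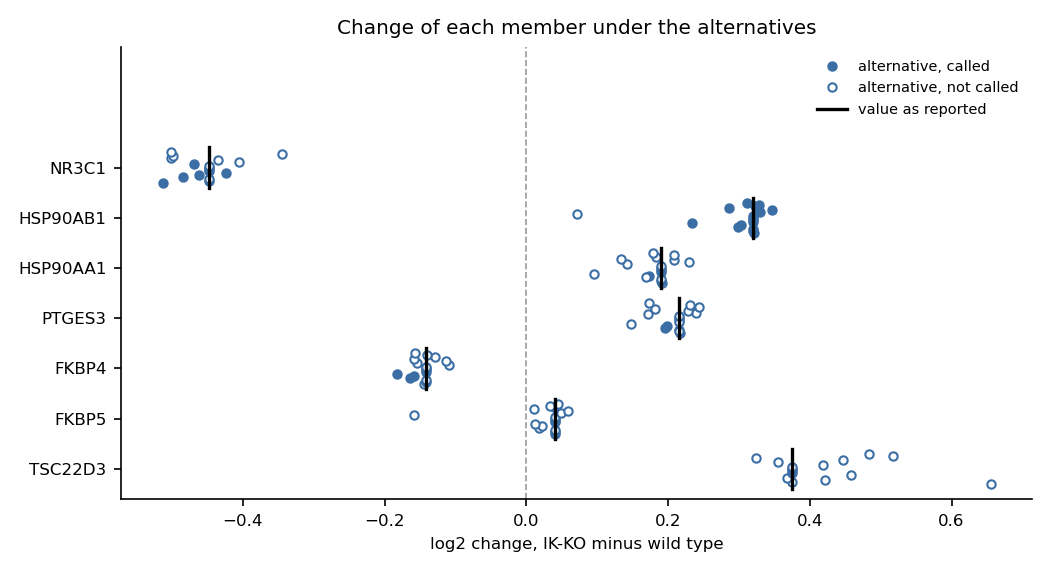
Change of each of the 7 genes (log2 scale, IK-KO minus wild type, horizontal axis) under the alternative settings. Each point is 1 setting, filled where the gene was called, and black lines mark the values given above. NR3C1 stays between -0.51 and -0.34, HSP90AB1 between 0.07 and 0.35, and FKBP5 crosses 0 in 1 setting.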

How the data were processed

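Each of the 6 samples has a deposited gene table of FPKM values, which the authors scaled for transcript length and mapped fragments. The submitters' processing notes name STAR 2.6.1c, Cufflinks 2.2.1, HOMER 4.10 and hg38, with no role or order. The annotation and strand setting are not given in the sources used here, so overlapping and antisense genes are uncertain. Rows of 1 identifier were summed, and genes not estimated in at least 1 library (29 identifiers, HSPA8 among them) were left out. Groups came from the sample titles. Changes were tested with limma 3.58.1 in R 4.3.3 on log2(FPKM + 1), with a mean-variance trend, two-sided, adjusted by Benjamini and Hochberg over the 12652 genes whose FPKM averaged 1 or more. This scale understates changes of low genes. No counts are given, so depth is unknown and precision was read from the deposited bounds, whose confidence level is not given in the tables. The script was tested on simulated data. Positions are on GRCh38, with transcripts from GENCODE release 44. Besides the members and IKZF1, the text names the 2 largest called rises and falls of each list and, for 3 members, genes among the 3 most like them. A few items are not reported here and were left out of these names and of 1 list. The members and lists were chosen with earlier results of these data known.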

Additional observations from a re-analysis of the deposited data

How the results depend on the processing

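The 7 genes were recomputed under 17 alternatives (15 for TSC22D3, which fell under 2 filters). NR3C1 was not called without a filter, with a minimum of 5 FPKM or with the replicate number as a block (-0.45 each), nor without any 1 library (-0.50 to -0.34). PTGES3 was not called without a filter, without a variance trend or with the block (0.22 each), under quantile normalization (0.15), with neighbours removed (0.17) or without any 1 library (0.17 to 0.24). Removing neighbours also ended the HSP90AB1 call (0.071) and reversed FKBP5 (-0.16) and HSPA5 (0.13). Scaling made FKBP4 called (rescaled -0.16, median-of-ratios -0.16, quantile -0.18) and HSP90AA1 (median-of-ratios 0.17). Under quantile normalization HSP90AA1 changed by 0.095 and was not called. The count of members called was 5 under median-of-ratios scaling and 1 without a filter, with the block, with neighbours removed or without any 1 library. The count over all tested genes ran from 1720 to 2804. The share of all tested genes called was 22.2% under median-of-ratios scaling, 7.4% without a filter and 14.3% with the block. It was 18.1% with neighbours removed and 13.6 to 16.1% without 1 library, beside 19.9% as reported. After each gene's group mean was subtracted, what remained in wild type and IK-KO replicates 1 to 3 correlated at 0.067, 0.025 and 0.005. The replicate numbers thus gave no sign of pairing the samples, and the replicate block called 1805 genes. Called genes per list without 1 library numbered 2 to 5 for the chaperone cycle, 0 to 2 for the FKBP family, 2 to 4 for coregulators, 0 for steroid receptors and 1 to 4 for heat shock genes. Other counts that moved were, for the chaperone cycle, 2 without a trend, 2 with the block and 4 with neighbours removed. The FKBP family had 1 without a filter, 0 without a trend, 1 with the block and 0 with neighbours removed. Coregulators had 2 without a filter and 2 with the block. Steroid receptors had 0 without a filter, 0 at 5 FPKM and 0 with the block, and heat shock genes 3 without a filter, 1 without a trend and 2 with the block. The bounds allow share differences of -2.22 to 8.58 points for FKBP5 and -6.09 to 1.82 for HSP90AA1. Of the 19 other genes named by the stated rule for the lists, IKZF1 included, 10 kept their call in every alternative that tested them. The other 9 (DNAJB1, STIP1, BAG1, FKBP3, FKBP15, H6PD, HSF2, HSPH1 and HSPA5) lost it in at least 1. The cause of these shifts was not tested.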
